A study of Homo sapiens with 18 samples.

Results

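The Dex response of PRMT5-depleted MDA-MB-231 cells was measured in 6 of the 18 libraries of the series, 3 of siPRMT5 cells treated with Dex and 3 of siPRMT5 cells treated with the vehicle Eth (ethanol). The 6 libraries were chosen by their labels alone, which give the siRNA, the treatment and the replicate. MDA-MB-231 is an established human cell line of triple-negative breast cancer (TNBC), and Dex (dexamethasone) is a synthetic glucocorticoid (GC). Before treatment, cells were transfected with 25 nM of a SMART-pool siRNA against PRMT5 (siPRMT5), against HP1γ (siHP1γ) or with a non-specific siRNA (siNS) for 48 h. Each kind of cell then received 100 nM Dex or the same volume of Eth for 8 h, with 3 biological replicates of each of the 6 conditions. The question was whether and how the genes that answer to Dex do so once PRMT5 is depleted, beside the responses of siNS and of siHP1γ cells. The depletion is a transient siRNA knockdown in 1 cell line, so it lowers PRMT5 without removing it.

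GC crosses the cell membrane and binds the glucocorticoid receptor (GR, encoded by NR3C1), which moves to the nucleus, binds DNA at glucocorticoid response elements, and raises or lowers transcription of nearby genes together with coregulator proteins. PRMT5 is an arginine methyltransferase that places symmetric dimethyl marks on histones, splicing factors and other proteins, and the study examined it and HP1γ, a chromatin protein, as GR coregulators. Well known GR targets raised by GC in many tissues are FKBP5, TSC22D3, PER1 and DUSP1, whereas GC lowers many inflammatory and AP-1 driven genes.

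The depletion was visible in every siPRMT5 library. PRMT5 mRNA stood at 226, 262 and 259 CPM (each count divided by its library's TMM-adjusted size, on 1 scale for all libraries) in siNS Eth and at 244, 247 and 226 CPM in siNS Dex. In siPRMT5 cells, it stood at 8.37, 7.75 and 6.10 CPM with Eth and at 11.5, 10.6 and 9.39 CPM with Dex. All siPRMT5 libraries therefore lay far below all siNS libraries, with 2.97% of the siNS level left with Eth and 4.39% left with Dex. Within siPRMT5 cells, the remaining PRMT5 mRNA was higher with Dex in 3 of 3 libraries (log2 fold change 0.52, standard error 0.13, edgeR adjusted p = 0.00634), which did not reach the fold change of 1.5 required below. Its part in the results below was not tested.

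Between 8682992 and 12472381 reads were counted per library of the 18, and every pair of replicates showed more scatter than counting alone gives. The 6 siPRMT5 libraries expressed VIM, an intermediate filament of mesenchymal-like cells, at 7190 to 9590 CPM and CD44 at 506 to 742 CPM. ESR1 and PGR, the hormone receptors that TNBC cells lack, and the epithelial cadherin CDH1 had 0 counts in all 6 libraries, where 0 counts allow up to 0.352 CPM in the shallowest library. Other epithelial and luminal genes of the same list were present. The keratins KRT18 and KRT8 stood at 280 to 408 and at 222 to 325 CPM. ERBB2 stood at 26.6 to 31.7 CPM, EPCAM at 10.2 to 12.6, FOXA1 at 6.1 to 7.82 and GATA3 at 2.68 to 5.32 CPM. Of 11 markers of immune, endothelial and stromal cells, which are not part of the culture, 3 had enough counts to be tested. These 11 summed to 19.2 to 23.0 CPM per library, most of it from COL1A1 (median 12.7 CPM). CD3E and LUM had 0 counts in all 6 libraries. In bulk RNA, fewer cells of a type and less RNA per cell cannot be told apart.

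In siPRMT5 cells, 412 genes rose and 420 fell with Dex among the 15298 genes tested, which is 2.69% and 2.75% of them and 5.44% in all. A gene was called when its adjusted p-value in edgeR's quasi-likelihood test was under 0.01 and its fold change at least 1.5. At an unadjusted p under 0.05, 4077 genes passed in either direction. The median log2 fold change was 1.08 among the genes that rose and -0.86 among those that fell, against -9e-04 over all genes tested. The larger changes were mostly increases, with 226 genes at least 2-fold higher against 147 at least 2-fold lower, and 83 at least 4-fold higher against 10 at least 4-fold lower. Without any test, all 3 Dex libraries lay above all 3 Eth libraries for 2135 genes (14%), and below them for 2262 genes (14.8%). With 3 libraries against 3, an exact permutation test of a single gene cannot go below p = 0.1.

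The genes that rose most included a receptor tyrosine kinase, matrix and metal-binding proteins and classical GR targets. TSC22D3 (chromosome X, 107713221 to 107777342 on hg38, minus strand), which encodes the anti-inflammatory protein GILZ, stood at 45.9, 42.1 and 40.7 CPM with Eth and at 430, 362 and 424 CPM with Dex. Its log2 fold change was 3.24 (standard error 0.10, edgeR adjusted p = 1.55e-18). The transcription factor KLF9, a direct GR target, stood at 14.5, 17.3 and 18.5 CPM with Eth and at 152, 152 and 134 CPM with Dex (log2 fold change 3.12). For both genes, the lowest Dex library lay several fold above the highest Eth library. KDR, which encodes the VEGF receptor VEGFR2, rose from 1.29, 2.11 and 1.40 CPM to 13.6, 15.4 and 14.4 CPM (log2 fold change 3.19). FBLN1, which encodes the extracellular matrix protein fibulin-1, rose from 1.07, 1.53 and 1.0 CPM to 11.5, 11.3 and 12.3 CPM (log2 fold change 3.29). NNMT, the nicotinamide N-methyltransferase, rose from 5.58, 4.70 and 5.7 CPM to 54.7, 45.9 and 45.6 CPM (log2 fold change 3.19). These increases were seen in all 3 libraries of each gene, without overlap of the groups.

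DNER, a transmembrane protein with EGF-like repeats, showed one of the tightest large increases, from 4.40, 4.23 and 3.70 CPM to 55.0, 57.8 and 54.3 CPM (log2 fold change 3.76, standard error 0.11, edgeR adjusted p = 5.4e-19). VSTM2L rose from 1.82, 1.53 and 1.30 CPM to 26.5, 23.6 and 24.1 CPM (log2 fold change 3.99). The genes with the largest fitted values had almost no reads without Dex. NEBL, an actin-binding nebulin-like protein, had 1, 3 and 4 counts with Eth and 108, 153 and 102 with Dex, a ratio of 40.4 after scaling for library size, with an exact 95% counting interval of 20.3 to 94.4. DAAM2, a formin of the Wnt and actin pathways, had 7, 3 and 7 counts with Eth and 150, 205 and 184 with Dex (ratio 28.3, interval 17.5 to 48.9). HPGD, the enzyme that inactivates prostaglandins, had 3, 7 and 9 counts with Eth and 123, 157 and 104 with Dex (ratio 18, interval 11.4 to 30.2). These intervals cover counting error only, and for all 3 genes every Dex library held more than 100 counts.

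The genes that fell most included a cytokine and cytochromes of the aryl hydrocarbon pathway. IL11 (chromosome 19, 55364382 to 55370463, minus strand), an interleukin of the IL-6 family, stood at 9.87, 8.45 and 10.1 CPM with Eth and at 1.37, 1.31 and 1.02 CPM with Dex. Its log2 fold change of -2.92 (standard error 0.19, edgeR adjusted p = 5.05e-12) was the lowest of the named genes. TAGLN3, a calponin-family protein, fell from 14.2, 14 and 14.5 CPM to 3.32, 2.79 and 3.17 CPM (log2 fold change -2.20). DEPP1, an autophagy regulator, fell from 10.8, 9.86 and 8.50 CPM to 2.83, 1.89 and 2.15 CPM (log2 fold change -2.09). In none of these genes did a Dex library reach an Eth library. POU2F2, the octamer-binding transcription factor OCT2, stood at higher levels and fell from 97.3, 102 and 107 CPM to 30.8, 28.2 and 30.6 CPM (log2 fold change -1.77, standard error 0.09). B3GALT5, a galactosyltransferase, fell from 14.2, 14.9 and 15.3 CPM to 3.32, 5.34 and 2.15 CPM (log2 fold change -1.98). TENT5C, a poly(A) polymerase, the adhesion protein AMIGO2, and the unnamed loci AC010247.2 and AC137932.2 fell by 1.70, 1.61, 1.77 and 1.70 on the log2 scale.

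**Figure D1:**
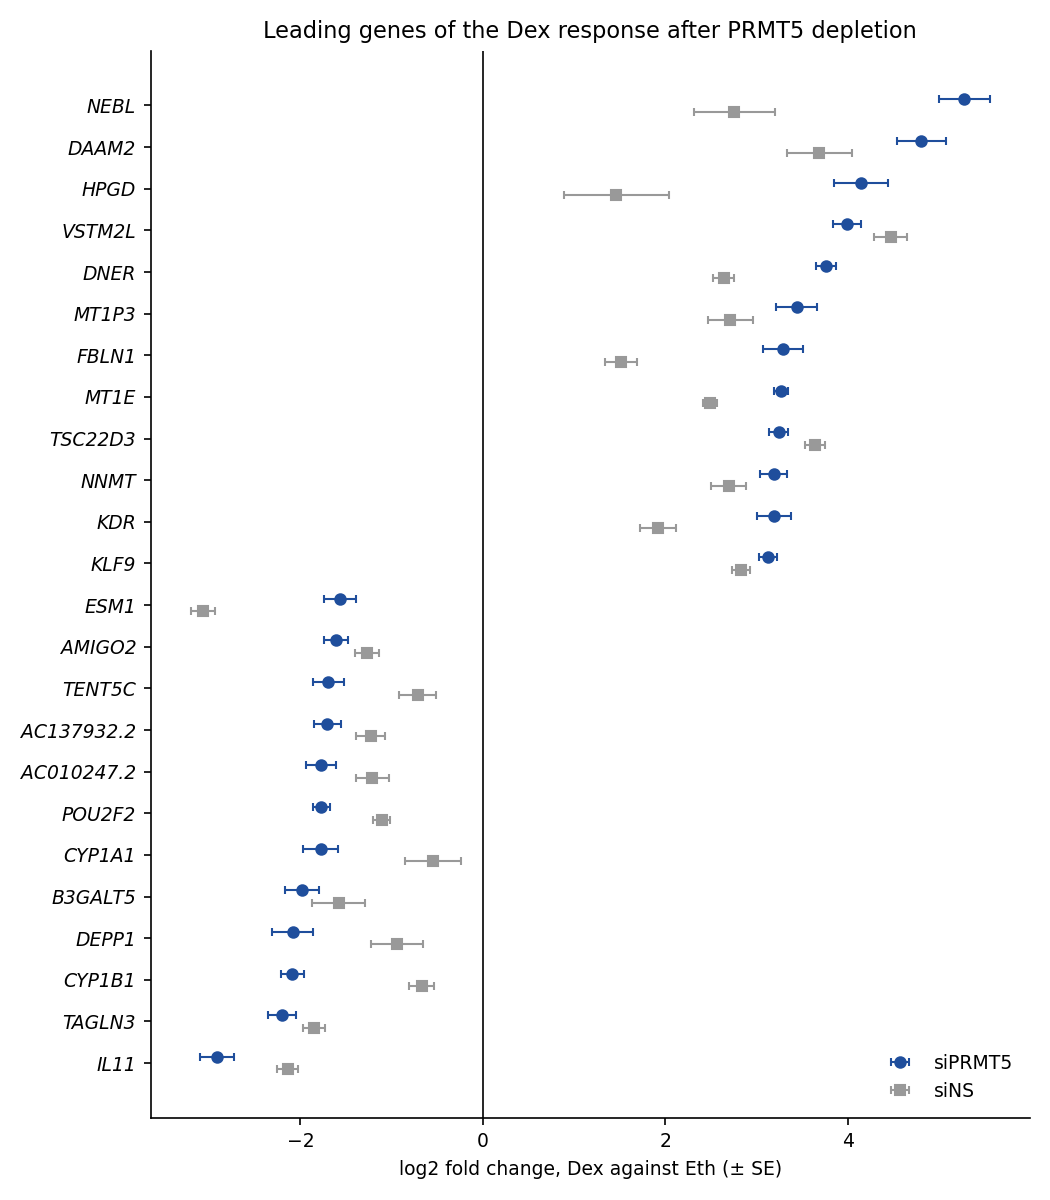
Log2 fold change of Dex against Eth (± standard error of the fit, horizontal axis) for the 12 largest increases and 12 largest decreases with at least 5 CPM on average over the 6 siPRMT5 libraries. Blue circles are siPRMT5 cells (3 libraries against 3) and gray squares siNS cells (3 against 3), and values run from 5.27 for NEBL to -2.92 for IL11 in siPRMT5 cells.

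Of 35 GR targets known from other tissues, 31 had enough counts, and 25 rose while 1 fell in siPRMT5 cells, 83.9% called against 5.44% of all genes. Their median log2 fold change was 1.57 in siPRMT5 cells and 1.01 in siNS cells, where 22 rose and 0 fell. SCNN1A, a subunit of the epithelial sodium channel, had 2, 0 and 2 counts with Eth and 107, 76 and 102 with Dex (ratio 63.5, exact 95% counting interval 24.5 to 235). PER1, a circadian repressor, and BIRC3, an inhibitor of apoptosis, rose with log2 fold changes of 2.34 and 2.57. NFKBIA and TNFAIP3, which restrain NF-κB, rose with 1.57 and 1.41, and the transcription factors CEBPD and SNAI2 rose with 2.28 and 2.11. CRISPLD2 was the single member called lower, from 5.80, 6.69 and 6.10 CPM to 2.74, 4.28 and 2.49 CPM (log2 fold change -0.93, edgeR adjusted p = 0.00175). The remaining 5, ZFP36, GLUL, KLF6, PIK3R1 and LPIN1, were not called, with log2 fold changes between -0.30 and 0.54. The response differed from that in siNS cells for 7 of the 31 (FKBP5, DUSP1, ERRFI1, CEBPB, TIPARP, KLF15 and STOM), with a higher value in siPRMT5 cells for each, against 3.8% of all genes tested whose response differed. CEBPB, a C/EBP transcription factor, had log2 fold changes of 1.77 in siPRMT5 and 1.18 in siNS cells (difference 0.59, edgeR adjusted p = 0.0284), and the metabolic regulator KLF15 2.01 and 0.74 (difference 1.27, adjusted p = 0.00135).

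The receptor was not called. NR3C1 stood at 150, 166 and 186 CPM with Eth and at 145, 176 and 153 CPM with Dex, and the libraries overlapped (log2 fold change -0.08, edgeR adjusted p = 0.635). Of 24 tested genes of the receptor, its chaperones and its coregulators, 1 rose and 0 fell (4.17% called against 5.44% of all genes). That gene was FKBP5, a chaperone that lowers the affinity of GR for hormone and is itself a GR target. CBX3, which encodes HP1γ, stood at 225, 218 and 229 CPM with Eth and at 258, 288 and 227 CPM with Dex (log2 fold change 0.20, adjusted p = 0.109). Of 12 tested arginine methyltransferases and PRMT5 partners, 0 were called by edgeR in either direction, against 5.44% of all genes. Among them was WDR77, the obligate partner of PRMT5, with a log2 fold change of 0.36 (edgeR adjusted p = 0.01). At an unadjusted p under 0.05 in edgeR, which 4077 of all 15298 genes passed, 5 of the 12 were higher and 2 lower. DESeq2 called 0 of them.

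The metallothioneins, small proteins that bind zinc and copper, rose together where they could be measured. MT1E stood at 81.9, 74.5 and 77.4 CPM with Eth and at 807, 723 and 719 CPM with Dex, with a log2 fold change of 3.26 (standard error 0.08, edgeR adjusted p = 2.6e-20). MT2A rose from 427, 419 and 367 CPM to 2323, 1988 and 2096 CPM (log2 fold change 2.4), and MT1X from 8.59, 8.45 and 9.0 CPM to 50.3, 31.9 and 43.0 CPM (log2 fold change 2.26). The list held 6 tested genes, of which these 3 rose and 0 fell (50% called against 5.44% of all genes). Its other tested members were the zinc sensor MTF1 (0.09) and the zinc transporters SLC30A1 (0.28) and SLC39A14 (0.15), which were not called. The processed pseudogene MT1P3 rose from 1.29, 2.70 and 1.30 CPM to 18.6, 19.1 and 18.8 CPM. Metallothionein sequences are nearly identical, so reads may have been assigned to the wrong copy, and the value of each copy is uncertain.

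The MAP kinase phosphatases, which switch off stress and growth factor kinases, did not move together. DUSP1 rose and DUSP10 fell (from 5.37, 8.45 and 6.5 CPM to 4.40, 3.29 and 4.19 CPM, log2 fold change -0.78, edgeR adjusted p = 0.00373), while the other 6 of 8 tested members were not called (25% called against 5.44% of all genes). The call of DUSP10 was lost without siPRMT5 Eth replicate 2 or 3, or without siPRMT5 Dex replicate 2 (adjusted p = 0.0444, 0.0101 and 0.0398). Of 10 AP-1 factors, 0 rose and 1 fell in edgeR and in DESeq2 (10% called against 5.44% of all genes). In edgeR, 1 was higher and 7 lower at an unadjusted p under 0.05, which 4077 of all 15298 genes passed. Their median log2 fold change was -0.41. The gene that fell was JUN, from 370, 354 and 315 CPM to 129, 116 and 139 CPM (log2 fold change -1.44), and FOS and FOSL1 had log2 fold changes of -0.05 and -0.35. FOSL2, JUND and JUNB passed the limit on p but not that on fold change, with log2 fold changes of -0.39, -0.51 and -0.47 (edgeR adjusted p = 2.9e-05, 0.000742 and 0.00477).

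Inflammatory mediators moved in both directions. Of 17 tested, 3 rose and 3 fell, 35.3% called against 5.44% of all genes. Besides IL11, the chemokine CXCL8 fell from 21.1, 26.3 and 25.8 CPM to 15.4, 16.0 and 17.2 CPM (log2 fold change -0.59, edgeR adjusted p = 0.000636), and the metalloproteinase MMP9 fell from 3.00, 3.87 and 4.10 CPM to 1.37, 1.40 and 2.26 CPM (log2 fold change -1.15). The call of MMP9 was lost without any 1 of 4 libraries (siPRMT5 Eth replicates 2 and 3, siPRMT5 Dex replicates 1 and 2), with adjusted p between 0.0131 and 0.025. The increases were in CXCL2 and CXCL1, ligands of CXCR2, and in the granulocyte growth factor CSF3. CXCL2 rose from 2.15, 0.939 and 1.0 CPM to 5.67, 4.36 and 3.62 CPM (log2 fold change 1.73), CXCL1 had a log2 fold change of 0.82, and CSF3 rose from 11.3, 8.80 and 9.70 CPM to 27.7, 20.8 and 19.1 CPM (log2 fold change 1.18). IL6, IL1B and PTGS2 were not called (log2 fold changes -0.49, -0.33 and 0.05).

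Among genes of cell motility and matrix, 9 of 23 tested rose and 4 fell, 56.5% called against 5.44% of all genes. Among those that rose were the plasminogen activator PLAT, the growth factor binding protein IGFBP3, the matrix protein CCBE1, the collagen-binding integrin ITGA10, the crosslinking enzyme LOX, fibronectin (FN1), CCN2 and the chemokine receptor CXCR4. The urokinase receptor PLAUR, the integrins ITGB4 and ITGA2, and tenascin C (TNC) fell, with log2 fold changes of -1.34, -1.14, -0.64 and -0.95. The study followed CCBE1, IGFBP3 and PLAT among Dex-regulated genes that it describes as involved in migration or invasion of tumor cells. It judged dependence on PRMT5 by comparing levels between siNS and siPRMT5 cells rather than by the fold change with Dex. CCBE1 stood at 18.7, 20.9 and 17.4 CPM with Eth and at 67.0, 64.2 and 64.6 CPM with Dex in siPRMT5 cells, against 35.8 ± 2.96 and 78.6 ± 4.36 CPM (SD, n = 3) in siNS cells. IGFBP3 stood at 63.3, 62.7 and 64.0 CPM and at 310, 302 and 295 CPM, against 196 ± 18.2 and 495 ± 28.2 CPM. Both genes were thus lower after PRMT5 depletion, with Eth and with Dex, yet rose by a larger factor. Differences of level were common. At an edgeR adjusted p under 0.05, siPRMT5 and siNS levels differed for 6446 of the 15298 genes with Eth and for 6488 with Dex. Of these, 3297 and 3344 were lower in siPRMT5 cells.

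The log2 fold change of CCBE1 was 1.78 in siPRMT5 against 1.14 in siNS cells, and that of IGFBP3 2.25 against 1.33. The difference of the 2 responses, tested as an interaction in edgeR, was 0.65 for CCBE1 (standard error 0.12, adjusted p = 0.00297) and 0.92 for IGFBP3 (standard error 0.10, adjusted p = 3.34e-06). PLAT stood at 18.7, 21.2 and 17.2 CPM with Eth and at 55.9, 48.3 and 60.0 CPM with Dex, against 41.7 ± 4.54 and 149 ± 15.2 CPM in siNS cells. For PLAT, the difference of the responses did not pass (log2 -0.32, standard error 0.15, edgeR adjusted p = 0.238), although it also stood lower in siPRMT5 cells in either condition. The log2 difference between siPRMT5 and siNS was -1.14 for PLAT with Eth and -1.45 with Dex.

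The aryl hydrocarbon receptor battery, genes of xenobiotic metabolism, held 8 tested genes, of which 1 rose, 3 fell and 4 were not called (50% called against 5.44% of all genes). CYP1A1 went from 12.8, 11 and 14.8 CPM to 2.64, 3.86 and 4.87 CPM (log2 fold change -1.78), and AHR, the receptor, from 49.1, 48.2 and 57.7 CPM to 30.1, 32.6 and 27.8 CPM (log2 fold change -0.77). The gene that rose was TIPARP, an ADP-ribosyltransferase that represses AHR and is also a GR target, from 102, 105 and 107 CPM to 186, 229 and 204 CPM (log2 fold change 0.98). CYP1B1, which with CXCR4, DUSP1 and FKBP5 was picked for this response with earlier results of these data known, fell most of the 8. It stood at 51.5, 50.5 and 69.1 CPM with Eth and at 14.3, 13.4 and 12.6 CPM with Dex (log2 fold change -2.09, standard error 0.13, edgeR adjusted p = 2.47e-12). In siNS cells, it stood at 22.1 ± 2.23 CPM with Eth and 13.9 ± 0.38 CPM with Dex (SD, n = 3), a log2 fold change of -0.67. With Dex, the levels were therefore close (log2 difference between siPRMT5 and siNS -0.05, adjusted p = 0.83), while with Eth the siPRMT5 level was higher (log2 1.37, adjusted p = 1.6e-09). The difference of the 2 responses was -1.42 (standard error 0.19, adjusted p = 8.53e-05).

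CXCR4 (chromosome 2, 136114349 to 136119177, minus strand), the receptor for the chemokine CXCL12, was the only gene called in opposite directions in siNS and siPRMT5 cells. It stood at 6.29, 7.13 and 6.73 CPM in siNS Eth and at 3.71, 4.25 and 2.72 CPM in siNS Dex. In siPRMT5 cells, it stood at 2.58, 2.11 and 3.40 CPM with Eth and at 9.97, 7.40 and 8.49 CPM with Dex. All siNS Dex libraries lay below all siNS Eth libraries, and all siPRMT5 Dex libraries above all siPRMT5 Eth libraries. The log2 fold change was -0.93 in siNS (edgeR adjusted p = 0.00155) and 1.65 in siPRMT5 cells (adjusted p = 4.43e-07), and the difference was 2.58 (standard error 0.27, adjusted p = 1.98e-06). In siHP1γ cells, the log2 fold change was -0.41 (adjusted p = 0.2), and the difference of siPRMT5 from siHP1γ was 2.06 (adjusted p = 2.2e-05). No annotated gene overlaps CXCR4 in GENCODE 44.

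DUSP1 and FKBP5 rose in both siNS and siPRMT5 cells, and by a larger factor in siPRMT5 cells. DUSP1, a phosphatase that inactivates p38 and JNK kinases, stood at 38.1, 34.9 and 39.2 CPM with Eth and at 275, 241 and 231 CPM with Dex (log2 fold change 2.73, standard error 0.08, edgeR adjusted p = 5.4e-19). In siNS cells, it went from 76.8 ± 4.18 to 219 ± 11.1 CPM (SD, n = 3, log2 fold change 1.51). The siPRMT5 level was lower with Eth (log2 -1.04) and differed less with Dex (log2 0.18, adjusted p = 0.043). FKBP5 stood at 84.0, 89.1 and 97.4 CPM with Eth and at 680, 696 and 776 CPM with Dex (log2 fold change 2.99), against 113 ± 1.82 and 503 ± 1.90 CPM in siNS cells (log2 fold change 2.15). Here the siPRMT5 level was lower with Eth (log2 -0.33) and higher with Dex (log2 0.51). The differences of the responses were 1.22 for DUSP1 (standard error 0.11, adjusted p = 7.97e-08) and 0.84 for FKBP5 (standard error 0.10, adjusted p = 2.31e-05).

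**Figure D2:**
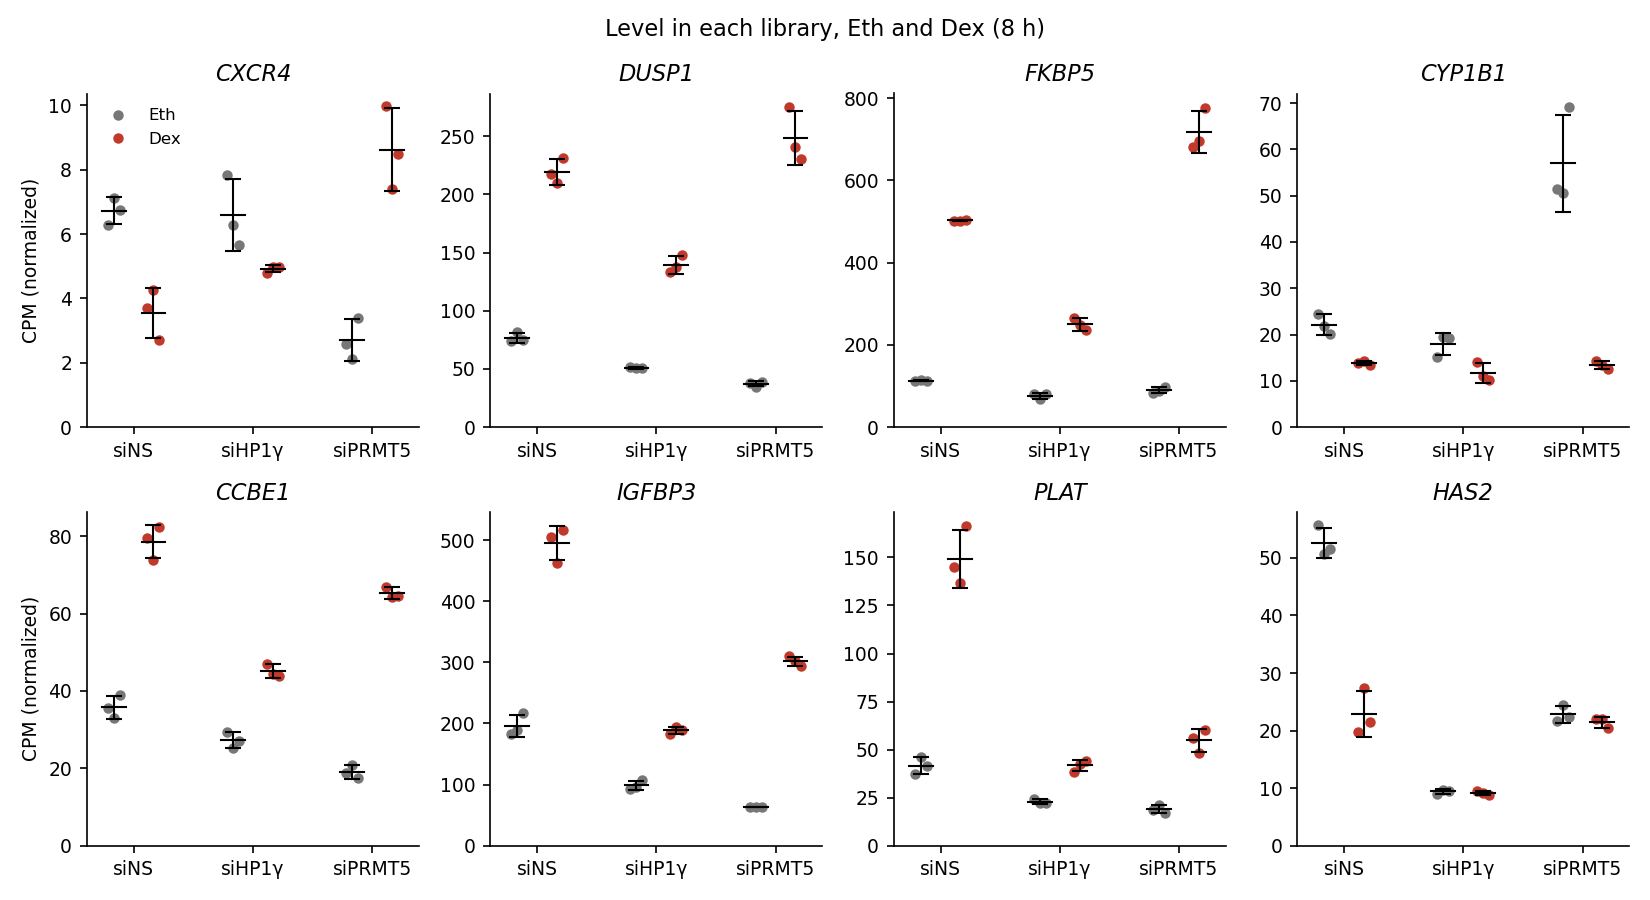
Level of 8 genes in each library (CPM, linear axes from 0), with gray points for Eth and red points for Dex, 3 libraries per condition, and the mean ± SD in black. CXCR4 falls with Dex in siNS and rises in siPRMT5 cells, CYP1B1 starts at 57.0 CPM in siPRMT5 Eth and ends near the siNS Dex level, PLAT is lower after PRMT5 depletion in both conditions, and HAS2 falls with Dex in siNS cells while its siPRMT5 libraries overlap.

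The calls in siPRMT5 cells were set beside those in siNS cells, which come from other libraries of the same experiment. In siNS cells, 252 genes rose (1.65%) and 162 fell (1.06%). Of the genes that rose, 193 were shared, which is 46.8% of the siPRMT5 and 76.6% of the siNS list. Of those that fell, 100 were shared, which is 23.8% of the siPRMT5 and 61.7% of the siNS list. The 219 genes that rose only by the calls in siPRMT5 cells had a median log2 fold change of 0.87 there and 0.31 in siNS cells, and 85.4% of them had a positive value in siNS cells as well. For the 320 genes that fell, the medians were -0.82 and -0.31, with 81.2% of the same sign. Of these, 84 of the 219 and 111 of the 320 also passed the test of the difference.

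The Dex response differed between siPRMT5 and siNS cells for 582 genes (3.8%) at an adjusted p under 0.05, 241 with a higher and 341 with a lower value in siPRMT5 cells. This count ranged from 319 to 819 when 1 of the 12 libraries was left out. It was 319 and 337 without siNS Eth replicate 1 or 3, 330 and 355 without siNS Dex replicate 1 or 3, 341 without siPRMT5 Eth replicate 2 and 355 without siPRMT5 Dex replicate 2. Of the 412 genes that rose in siPRMT5 cells, 125 (30.3%) were among the 582, 122 of them with a larger increase in siPRMT5 cells. Of the 420 that fell, 123 (29.3%) were among them, 122 with a larger decrease. Since genes called in siPRMT5 cells were chosen for a large value there, their larger values are a description. The genes called in siHP1γ cells, chosen on other libraries, were 255 (1.67%). The 154 that rose there had a median log2 fold change of 1.40 in siNS and 1.75 in siPRMT5 cells, with 99 (64.3%) larger in siPRMT5 cells. The 101 that fell had medians of -0.76 and -0.99, with 70 (69.3%) lower in siPRMT5 cells. Of the genes called in siNS cells, and so chosen for a large value there, the 252 that rose had medians of 1.05 in siNS and 1.19 in siPRMT5 cells, with 132 (52.4%) larger in siPRMT5 cells. The 162 that fell had medians of -0.86 and -0.79, with 65 (40.1%) lower in siPRMT5 cells.

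**Figure D3:**
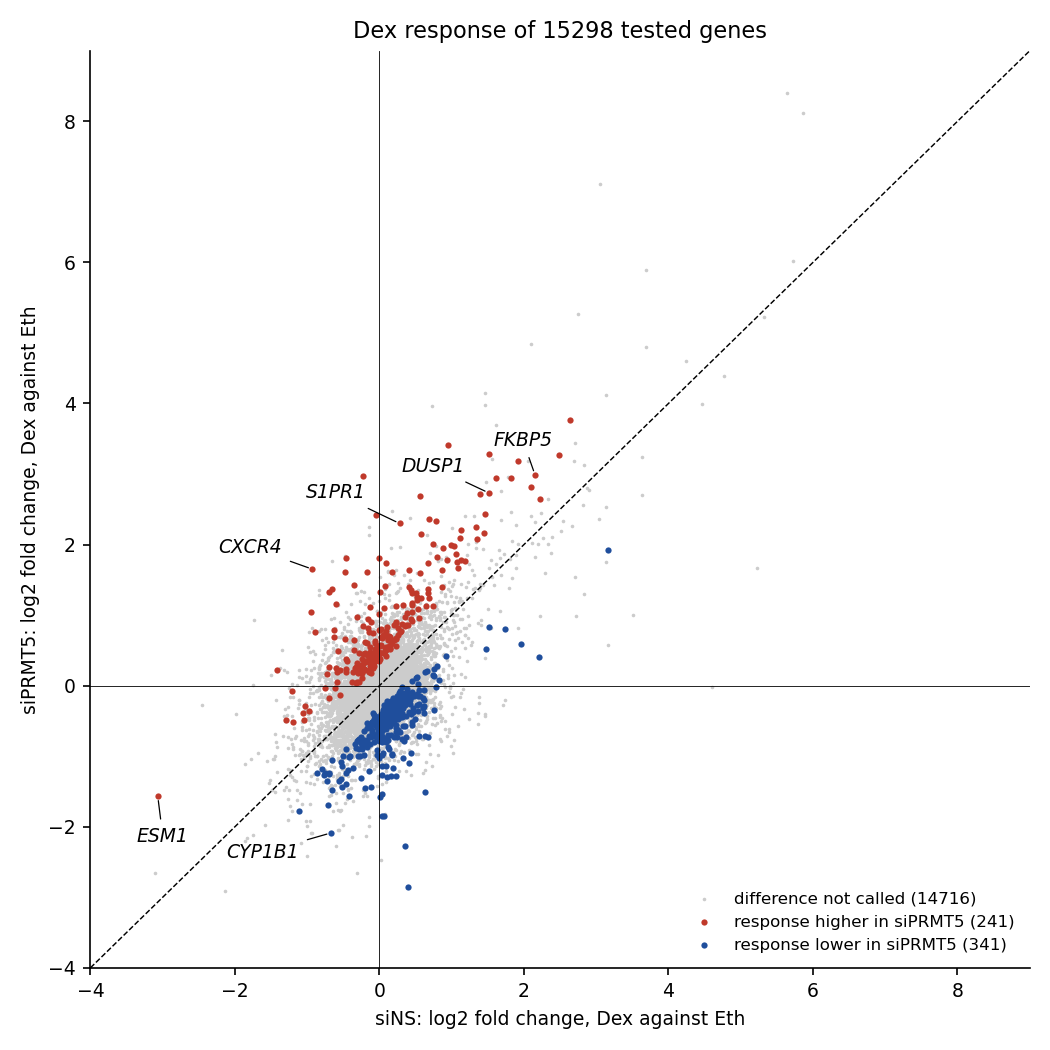
Log2 fold change of Dex against Eth in siNS cells (horizontal) and in siPRMT5 cells (vertical) for the 15298 genes tested, with the line of equal response dashed. Red points are the 241 genes with a higher and blue points the 341 genes with a lower response in siPRMT5 cells, and CXCR4 lies alone among the labelled genes with a fall in siNS and a rise in siPRMT5 cells.

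Some genes rose in siPRMT5 cells and were not called in siNS cells. S1PR1, a receptor for sphingosine 1-phosphate in cell migration, stood at 2.90, 1.64 and 2.80 CPM with Eth and at 12.7, 11.1 and 13.0 CPM with Dex in siPRMT5 cells, against 3.66 ± 0.482 and 4.41 ± 0.469 CPM in siNS cells. F3, the tissue factor that starts coagulation, stood at 99.7, 89.0 and 109 CPM and at 306, 294 and 314 CPM, against 193 ± 11.3 and 172 ± 21.5 CPM. STOM, the membrane protein stomatin, stood at 37.1, 32.5 and 38.4 CPM and at 133, 129 and 118 CPM, against 47.1 ± 6.94 and 46.7 ± 5.64 CPM. For these 3 genes, the siNS means changed little with Dex, while the siPRMT5 Dex libraries lay above all other siNS and siPRMT5 libraries. The differences of the responses from siNS cells were 2.02, 1.78 and 1.82 on the log2 scale (edgeR adjusted p = 0.000483, 1.42e-09 and 1.2e-08). In siHP1γ cells, the log2 fold changes were 0.34, 0.36 and 0.33, none of them called. The siHP1γ Dex libraries of F3 and STOM also lay above all siHP1γ Eth libraries. The differences of siPRMT5 from siHP1γ were 1.95, 1.25 and 1.48 (edgeR adjusted p = 0.000225, 4.38e-07 and 2.38e-07). PDZD2, a scaffold protein, stood at 43.0, 52.6 and 48.2 CPM with Eth and at 217, 258 and 261 CPM with Dex, against 23.9 ± 3.40 and 38.6 ± 2.23 CPM in siNS cells, with a difference of 1.67. PDZD2 was called in siNS cells too. FBLN1, DNER, KDR and MT1E, called in both, also rose by a larger factor in siPRMT5 cells (differences of 1.77, 1.13, 1.27 and 0.78).

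Other genes fell in siPRMT5 cells and had a value near 0 in siNS cells. PCDH1, a protocadherin, stood at 5.79, 7.87 and 8.7 CPM with Eth and at 2.74, 2.14 and 2.94 CPM with Dex (log2 fold change -1.53, against 0.03 in siNS cells). MARCKSL1, a regulator of actin, stood at 21.5, 17.3 and 20 CPM and at 8.21, 7.64 and 5.54 CPM (-1.44 against -0.11). CD82, a tetraspanin known as a metastasis suppressor, stood at 17.1, 18.7 and 12.7 CPM and at 5.47, 5.67 and 6.56 CPM (-1.45 against -0.20). In all 3 genes, the siPRMT5 Eth and Dex libraries did not overlap, and the differences were -1.56, -1.33 and -1.25 (edgeR adjusted p = 0.00319, 0.000253 and 0.000916). In siHP1γ cells, the log2 fold changes were -0.61, 0.08 and -0.47, none of them called. The siHP1γ Dex libraries of PCDH1 and CD82 also lay below all siHP1γ Eth libraries. The difference of siPRMT5 from siHP1γ did not pass for PCDH1 (-0.93, edgeR adjusted p = 0.191). It passed for MARCKSL1 and CD82 (-1.53 and -0.98, adjusted p = 1.2e-05 and 0.00575). PTGES, which makes prostaglandin E2, fell from 28.0, 23.7 and 27.5 CPM to 19.1, 14.8 and 14.2 CPM (log2 fold change -0.72), whereas its siNS value was 0.68 (adjusted p = 0.0622). FRRS1, a ferric reductase, had -1.15 in siPRMT5 and 0.10 in siNS cells.

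Responses of siNS cells were also weaker or not called in siPRMT5 cells. Of the genes called in siNS but not in siPRMT5 cells, 59 rose and 62 fell in siNS cells, and 15 and 16 of them passed the test of the difference. Of the genes called in siPRMT5 cells, 3 that rose and 1 that fell had a difference of the opposite sign. ESM1, the endothelial proteoglycan endocan, stood at 33.7, 34.4 and 27.4 CPM in siNS Eth and at 3.00, 4.47 and 3.99 CPM in siNS Dex, and in siPRMT5 cells at 8.05, 8.22 and 7.5 CPM with Eth and at 2.54, 2.88 and 2.49 CPM with Dex. It fell in both, with log2 fold changes of -3.07 and -1.57 and a difference of 1.5 (edgeR adjusted p = 0.000549). LHX6, a homeobox factor, rose in siNS cells from 3.00 ± 0.442 to 14 ± 1.30 CPM (SD, n = 3), while in siPRMT5 cells it stood at 1.29, 2.11 and 2.50 CPM with Eth and at 2.83, 2.79 and 2.15 CPM with Dex, with overlapping libraries (log2 fold change 0.41, adjusted p = 0.304). HAS2, which makes hyaluronan, fell in siNS cells from 52.6 ± 2.67 to 22.9 ± 3.96 CPM, while in siPRMT5 cells it stood at 21.7, 24.4 and 22.3 CPM and at 22.0, 22.0 and 20.4 CPM, again with overlap (log2 fold change -0.08, adjusted p = 0.685). HAS2 thus stood in siPRMT5 cells, with or without Dex, near the siNS Dex level. In siHP1γ cells, HAS2 stood at 9.43 ± 0.371 CPM with Eth and 9.12 ± 0.391 CPM with Dex (log2 fold change -0.05), and its response there differed from that in siPRMT5 cells by -0.04 (standard error 0.17, adjusted p = 0.976). ESM1 had a log2 fold change of -1.70 in siHP1γ cells, with a difference of 0.13 (standard error 0.25, adjusted p = 0.931).

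The differences of the responses were -1.81 for LHX6 (edgeR adjusted p = 0.00114) and 1.13 for HAS2 (adjusted p = 3.73e-05). KRT7, a keratin, and MLPH, an adaptor of melanosome transport, were called in siNS cells (log2 fold changes 1.95 and 1.48) and had values of 0.59 and 0.52 in siPRMT5 cells, where all Dex libraries still lay above all Eth libraries. KRT7 stood at 1.51-fold with an adjusted p of 0.0141, so it passed the limit on fold change and missed that on p. In siHP1γ cells, KRT7 and MLPH had log2 fold changes of 0.49 and 0.66, and the differences of siPRMT5 from siHP1γ did not pass (0.10 and -0.14, standard errors 0.25 and 0.20, edgeR adjusted p = 0.944 and 0.899). PLXNA3, a semaphorin receptor, and CRIP2, a LIM protein, rose in siNS cells (0.76 and 0.61). In siPRMT5 cells, they had values of -0.34 and -0.39, which did not pass (edgeR adjusted p = 0.191 and 0.054). All siPRMT5 Dex libraries of both genes lay below all siPRMT5 Eth libraries. Fibronectin (FN1) rose by a smaller factor in siPRMT5 cells (log2 0.80 against 1.74, difference -0.94), from 361 ± 28.1 to 629 ± 68.6 CPM. ITGA10 likewise had 1.92 against 3.17, with a siPRMT5 Eth level of 8.83 ± 1.51 CPM and single siNS Eth libraries at 1.21, 1.22 and 1.45 CPM. The siHP1γ values were 0.88 for FN1, 2.39 for ITGA10 and 1.25 for LHX6, and none of these 3 passed the test against siPRMT5 cells (edgeR adjusted p = 0.906, 0.392 and 0.17). PLXNA3, with 0.19 in siHP1γ cells, did not pass either (difference -0.53, adjusted p = 0.324). CRIP2, with 0.33 in siHP1γ cells, did pass (difference -0.73, adjusted p = 0.0238).

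Against siHP1γ cells, the Dex response of siPRMT5 cells differed for 321 genes (2.1%), 197 with a higher and 124 with a lower value in siPRMT5 cells. The genes called in both were 139 that rose, which is 33.7% of the siPRMT5 and 90.3% of the siHP1γ list, and 79 that fell, which is 18.8% and 78.2%. The difference from siHP1γ cells was 1.28 for both DUSP1 (edgeR adjusted p = 2.6e-08) and FKBP5 (adjusted p = 1.5e-08), and -1.48 for CYP1B1 (adjusted p = 2.9e-05). For the study's targets it was 1.05 for CCBE1, 1.33 for IGFBP3 and 0.66 for PLAT (adjusted p = 7.3e-06, 7.3e-09 and 0.018).

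Clock and metabolic genes held a few clear responses each. Of 16 tested circadian genes, 2 rose and 1 fell (18.8% called), and of 16 tested metabolic targets, 4 rose and 1 fell (31.2% called), against 5.44% of all genes. PER1 stood at 19.4, 18.4 and 20.9 CPM with Eth and at 99.1, 93.3 and 106 CPM with Dex, and PER2 at 12.3, 12.4 and 13.9 CPM and at 28.1, 30.4 and 29.6 CPM (log2 fold change 1.19). The repressor BHLHE40 fell from 345, 343 and 338 CPM to 205, 185 and 205 CPM (log2 fold change -0.79). Of the metabolic targets, ANGPTL4, an inhibitor of lipoprotein lipase, rose from 1.93, 2.0 and 2.30 CPM to 14.2, 10.1 and 12.1 CPM (log2 fold change 2.53), and PDK4, which holds back pyruvate oxidation, from 4.08, 3.40 and 4.50 CPM to 11.1, 11 and 11.2 CPM (log2 fold change 1.47). The insulin signaling adaptor IRS2 and the acyl-CoA synthetase ACSL1 rose with log2 fold changes of 1.72 and 0.90, and the glycolytic regulator PFKFB3 fell with -0.61.

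Cell cycle and p53 genes did not pass. Of 15 DNA replication genes, 14 mitosis genes and 17 p53 targets tested, edgeR called 0 in either direction, against 5.44% of all genes. At that share, a list this short can hold no called gene without differing from all genes. The median log2 fold changes of these lists were -0.11, -0.0023 and -0.07. CDKN1A, the p53 target that stops the cycle, had 0.08, MKI67 -0.11 and PCNA -0.13. At an unadjusted p under 0.05 in edgeR, 4 DNA replication genes and 1 mitosis gene were lower and 0 higher. Of the p53 targets, 3 were higher and 4 lower at that limit, which 4077 of all 15298 genes passed. DESeq2 called 0 in each of these lists. Of 16 interferon response genes, 0 rose and 2 fell in edgeR and in DESeq2 (against 2.69% and 2.75% of all genes), while 0 were higher and 10 lower at an unadjusted p under 0.05, with a median log2 fold change of -0.32. The 2 genes were OAS3 from 4.62, 5.99 and 4.90 CPM to 2.93, 2.47 and 1.92 CPM (log2 fold change -1.06, edgeR adjusted p = 0.000983) and the transcription factor IRF1 from 26.6, 25.6 and 21.8 CPM to 15.3, 15.1 and 15.7 CPM (log2 fold change -0.68). Of 11 tested genes of breast cancer cell identity, 0 were called by edgeR or DESeq2, against 5.44% of all genes in edgeR. At an unadjusted p under 0.05 in edgeR, 2 of the 11 were higher and 5 lower. Among the markers of other cell types, PECAM1, an endothelial adhesion protein, rose from 3.54, 3.52 and 2.70 CPM to 5.67, 6.66 and 8.15 CPM (log2 fold change 1.06), while CDH5 and VWF, further endothelial markers, stood at 0.1 to 0.704 and at 0 to 0.329 CPM. The part of other cell types in these results was not tested.

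**Figure D4:**
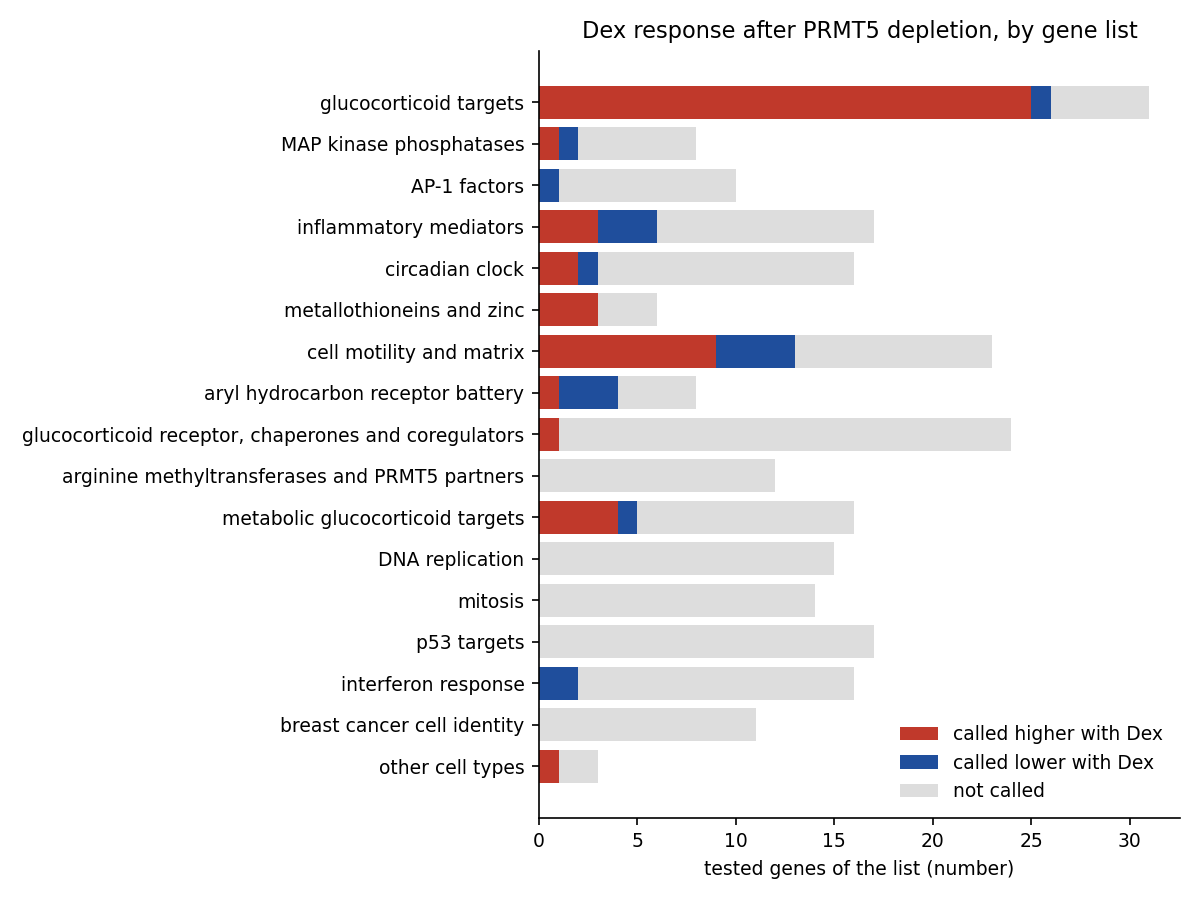
Number of tested genes (horizontal axis) in each of 17 gene lists that were called higher (red), called lower (blue) or not called (gray) with Dex in siPRMT5 cells. The list of GR targets holds 25 of its 31 tested genes in red, and the lists of DNA replication, mitosis, p53 targets, arginine methyltransferases and cell identity hold no called gene. Of all genes tested, 5.44% were called.

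Sequence upstream of the called genes was searched for known elements as a description of genes that moved together. RefSeq gives 14675 windows, from 250 bases before to 50 after an annotated start (GRCh38.p14), for 10035 of the 15298 genes tested. The core of the glucocorticoid response element, ACANNNTGT, which reads the same on both strands, was in 6.82% of the 484 windows of genes that rose, in 3.73% of the 510 windows of genes that fell and in 3.07% of all windows. The stricter form, with G at the second base before and C at the second base after the core, was in 5, 4 and 37 windows (1.03%, 0.784% and 0.252%). The AP-1 motif TGANTCA was in 8.88% of windows of genes that rose, in 11.6% of those that fell and in 5.48% of all windows, and the E-box CACGTG in 8.68%, 6.08% and 9.08%. Windows of genes that rose or fell were compared with all windows by these shares alone, with no test. Among the named genes with a searched window, those that rose and hold the core were TSC22D3 and IRS2, and 0 hold the stricter form. Named genes without a searched window were not examined for either form. Their windows are shown 5′ to 3′ on the strand of the gene with the core in capitals, 208 bases before the start for TSC22D3 (chrX:107775738-107776037, minus strand) and 46 bases before the start for IRS2 (chr13:109786534-109786833, minus strand).
TSC22D3: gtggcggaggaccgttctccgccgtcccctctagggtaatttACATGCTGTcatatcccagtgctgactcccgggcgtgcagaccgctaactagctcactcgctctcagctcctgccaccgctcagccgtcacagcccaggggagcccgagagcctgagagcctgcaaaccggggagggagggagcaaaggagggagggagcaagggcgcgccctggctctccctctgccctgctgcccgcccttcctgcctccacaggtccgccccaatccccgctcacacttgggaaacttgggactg
IRS2: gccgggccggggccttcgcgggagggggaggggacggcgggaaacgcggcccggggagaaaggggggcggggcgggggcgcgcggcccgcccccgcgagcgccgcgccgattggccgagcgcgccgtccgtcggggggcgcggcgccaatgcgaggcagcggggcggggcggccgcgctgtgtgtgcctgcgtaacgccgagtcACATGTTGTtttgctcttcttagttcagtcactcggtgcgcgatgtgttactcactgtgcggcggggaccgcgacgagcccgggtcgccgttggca
TSC22D3 has further annotated starts, and IRS2 rose from 44.3, 36.3 and 51.2 CPM to 138, 142 and 156 CPM. A match of letters says only that they occur in the window and was not compared with binding of GR.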

How the data were processed

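The series holds 18 RNA libraries of MDA-MB-231 cells, 3 biological replicates for each of 6 conditions. The authors prepared libraries with Lexogen kits, mapped reads on hg38 with Bowtie2 (2.4.2), counted them with HTSeq (0.9.1), and deposited for each library raw counts per gene symbol, as whole numbers, for 60642 symbols. Bowtie2 does not split reads across introns, and the strand setting and annotation are not given in the sources used here, so counts of overlapping genes, antisense genes and near-identical copies are uncertain. Of 68 named genes, 40 overlap another gene in GENCODE 44, among them PRMT5, FKBP5 and CYP1B1. A deposited table of the authors' own DESeq2 (2.11.40.7) comparisons, with log2 fold changes and adjusted p-values, was not used.

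Genes kept by filterByExpr (15298) were normalized by TMM and tested with edgeR 4.0.16 (R 4.3.3) by a quasi-likelihood fit to all 18 libraries (a mean for each condition, leaving 12 residual degrees of freedom), and p-values were adjusted over all genes tested by the Benjamini-Hochberg method. A standard error is the log2 fold change divided by the square root of its F statistic. A Dex response was called when it reached 1.5-fold with an adjusted p under 0.01, and a difference of responses (interaction) at an adjusted p under 0.05. The study's text and a figure legend give different limits on the fold change (1.5 and 2) for the Dex response, and the adjusted p limit stands in the legend with the latter, so the pair used here was chosen here and both fold limits were run. The procedure was tested on simulated counts, drawn around 1 mean profile for all 18 libraries, with a small set of genes changed in siPRMT5 Dex only. The simulation held no effect of the depletion on levels, so its false calls need not be those of the real data. Of 67 genes changed 1.5-fold, the Dex rule recovered 22, its limit on adjusted p alone 40, and the test of the difference 23. At 2-fold, they recovered 64 and 58 of 67. False calls were 0 of 152 for the Dex rule and 4 of 150 for the difference. Many changes near 1.5-fold were thus missed. Total counts per library (8682992 to 12472381) set the precision of low genes, with 3 counts worth 0.246 to 0.352 CPM in siPRMT5 libraries. Count ratios have exact 95% binomial intervals.

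The members, gene lists and tests were chosen with earlier results of these data known. Named genes were CXCR4, DUSP1, FKBP5 and CYP1B1, the study's targets CCBE1, IGFBP3 and PLAT (another gene of this rule is not reported here), the 12 largest increases and 12 largest decreases with at least 5 CPM and the same direction in all 3 same-numbered pairs, the 6 largest positive and 6 largest negative differences from siNS, the 6 largest differences among genes called only in siNS, and up to 4 called genes per list. Further list members (such as NR3C1, CBX3, FOSL2, JUND, JUNB, CEBPB, KLF15, BIRC3, CRISPLD2, CXCL8, FN1, PLAUR and ITGB4) were chosen for naming after their values were seen. Alternatives were DESeq2 1.42.0, DESeq2's size factors or library size alone, no filter on low counts or a minimum of 10 counts in each library, replicate number added as a block, the 6 siPRMT5 or the 12 siPRMT5 and siNS libraries alone, other limits on p and fold change, and each library left out.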

Additional observations from a re-analysis of the deposited data

Results flagged for a closer look

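The Dex response of siPRMT5 cells was tested against that of siNS and of siHP1γ cells, and 582 genes differed from siNS and 321 from siHP1γ cells at an adjusted p under 0.05 in edgeR. Groups of 3 libraries are too small to look for single outlying libraries. The values below are log2 differences of the Dex response, siPRMT5 minus siNS, for the named genes that passed. Signaling and surface proteins were CXCR4 (2.58), S1PR1 (2.02), F3 (1.78), KDR (1.27), DNER (1.13) and STOM (1.82). The scaffold PDZD2 had 1.67, the matrix proteins FBLN1, CCBE1 and IGFBP3 had 1.77, 0.65 and 0.92, ESM1 had 1.5, and HAS2 had 1.13. Of GR targets and enzymes, DUSP1 had 1.22, FKBP5 0.84, TIPARP 0.63, ACSL1 0.67 and MT1E 0.78, and the chemokine CXCL2 had 1.64. PRMT5 itself, the target of the siRNA, had 0.57 at the low level left by the depletion.

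Lower in siPRMT5 cells were the responses of LHX6 (-1.81), PCDH1 (-1.56), CYP1B1 (-1.42), PTGES (-1.40), KRT7 (-1.36), MARCKSL1 (-1.33), CD82 (-1.25), FRRS1 (-1.24) and ITGA10 (-1.24). Smaller negative differences were those of PLXNA3 (-1.10), CRIP2 (-1.0), TENT5C (-0.98), MLPH (-0.95), POU2F2 (-0.66), IRF1 (-0.60) and BHLHE40 (-0.48). Against siHP1γ cells, the differences that passed among the genes followed throughout were 2.06 for CXCR4, 1.28 for DUSP1, 1.28 for FKBP5, -1.48 for CYP1B1, 1.05 for CCBE1, 1.33 for IGFBP3 and 0.66 for PLAT.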

How the results depend on the processing

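The 832 genes called in the siPRMT5 Dex response were 716 to 895 under another test, scaling, filter, set of libraries or block, and 741 to 793 with 1 library left out. The limits mattered more: 373 genes passed with a fold change of at least 2 and 1569 with no fold change limit. The 582 genes whose response differed from siNS were 568 to 716 under the other alternatives and 319 to 819 with 1 library left out. The count was 319 without siNS Eth replicate 1, 337 without siNS Eth replicate 3, 330 without siNS Dex replicate 1, 355 without siNS Dex replicate 3, 341 without siPRMT5 Eth replicate 2 and 355 without siPRMT5 Dex replicate 2, and the cause was not tested. Over libraries left out, the 321 differences from siHP1γ were 236 to 384, the siNS response 365 to 415 and the siHP1γ response 209 to 240 genes. Same-numbered siPRMT5 Eth and Dex libraries deviated from their group means with correlations of 0.22, -0.006 and -0.108. Between different numbers, the correlations ran from -0.209 to 0.216. With 3 libraries per group, these values cannot decide whether the numbers pair the samples. With the replicate number as a block, the counts were 828 for the siPRMT5 response, 618 and 315 for the differences from siNS and siHP1γ, 407 for siNS and 253 for siHP1γ, and 720 in the siPRMT5 libraries alone. Of the single-gene values rerun, 0 reversed, and calls changed under some alternatives for KRT7, MLPH, DUSP10 and MMP9. The difference from siNS was rerun only for the picked genes, the study's targets, the largest differences and the genes called only in siNS. Differences of other genes, such as KDR, DNER, MT1E, ESM1, CXCL2, ITGA10, TENT5C and IRF1, were not rerun singly. The Dex response of PRMT5 and values of members named later, such as CEBPB, KLF15, FN1, CXCL8 and CRISPLD2, were not rerun either. KRT7 passed with DESeq2 (adjusted p = 0.00997), where MMP9 was lost (0.0106), and DUSP10 was lost in the siPRMT5 libraries alone (0.0153 with edgeR, 0.0247 with DESeq2, 0.0336 with the block). Depth limits genes near the floor of 3 counts, such as NEBL and SCNN1A.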
